A study of Mus musculus with 6 samples.

Results

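Genes of the matrix metalloproteinases (Mmp), the membrane-bound ADAM proteinases (Adam), the secreted ADAMTS proteinases (Adamts), the ADAMTS-like glycoproteins (Adamtsl) and the metalloproteinase inhibitors (Timp1 to Timp4 and Reck) were read from RNA-seq of C2C12 cells with and without cyclic stretch. They were chosen by symbol, and 85 of the 22375 rows of the deposited table belonged to these families, namely 33 Adam, 23 Mmp, 19 Adamts and 5 Adamtsl genes, the 4 Timp genes and Reck. Of these, 32 had a 6-library mean of 0.5 FPKM or more and were tested, and 21 were at 0 in every library. FPKM scales the fragments of a gene to the length of its transcript and to the mapped fragments of the library, so that levels of different genes can be compared per length.

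C2C12 is an established line of mouse skeletal myoblasts, the precursors that fuse into muscle fibers. The CON group held 3 libraries of cells without stretch, and the 4H group held 3 libraries of cells stretched cyclically at 15% elongation for 4 h. The cells sat on elastic plates coated with poly-lysine in medium with serum, the labels name no genetic change or drug in either group, and the model is limited to a single line at a single time of stretch. The comparison asks how the transcripts for matrix breakdown and for its inhibition differed after stretch. In bulk RNA a higher level in every cell and a larger number of cells with a high level cannot be told apart.

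Metalloproteinases cut with a zinc ion in the active site. MMPs degrade collagens, laminins and other matrix proteins, ADAMs mostly release the outer parts of membrane proteins such as growth factors, and ADAMTS enzymes cut proteoglycans and trim procollagens. TIMPs block the active site of these enzymes by binding to it, and the balance of proteinase and inhibitor is followed in muscle repair and fibrosis because it sets how much matrix is kept.

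The inhibitors Timp1 and Timp3 rose, while among the MMP genes Mmp3 rose, 6 others fell and 2 did not pass the test. Adam8, Adam19 and Adam12 rose among the ADAMs, and Adamts7, Adamts14, Adamts4 and Adamts6 among the ADAMTS genes, whereas Adamts5 and Adamtsl3 fell. Here rose and fell mean an adjusted p of 0.05 or less in limma on log2(FPKM + 0.5), with Benjamini-Hochberg adjustment over 11593 genes. Of the 32 genes tested, 10 rose and 11 fell, which is 65.6% of them, against 46.7% of all genes tested (22.6% that rose and 24.1% that fell). A stricter call, which also required a log2 fold change of 1 or more in either direction, was met by 6 of the 32 (18.8%), against 3.88% of all genes (2.61% higher and 1.28% lower). These were Timp1, Timp3, Mmp3, Adam8 and Adam19, which were higher, and Mmp19, which was lower. Mmp3 passed the filter only through the 4H group, so it is no support for any count of this paragraph. With a filter at 1 FPKM Mmp3 was not tested. There Timp1, Timp3, Adam8, Adam19 and Mmp19 met the stricter call among 28 genes, beside 414 of all 10994 genes. The median log2 fold change of the 32 was 0.05, beside -0.01 for all genes, and the median of its absolute value was 0.31, beside 0.19. The groups did not overlap in 23 of the 32 (71.9%), with 12 higher and 11 lower, against 56.7% of all genes, with 27.5% higher and 29.2% lower. For 3 libraries a group the smallest p of an exact two-sided permutation test is 0.1, so the adjusted p values come from limma.

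**Figure D1:**
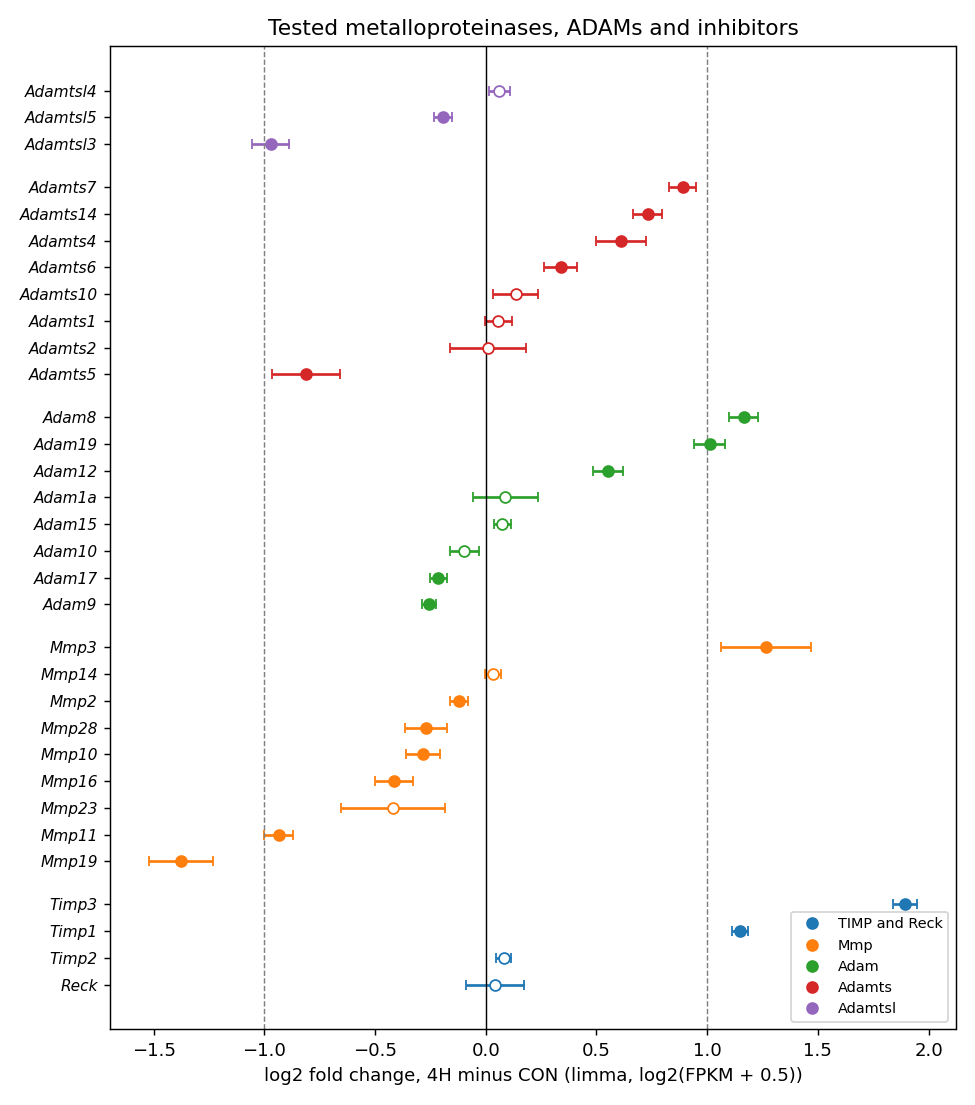
Log2 fold change of the 32 tested genes (x axis, 4H minus CON on log2(FPKM + 0.5), error bars are limma standard errors), grouped by family in colour; filled points have an adjusted p of 0.05 or less and dashed lines mark a log2 fold change of 1 in either direction. Timp3 stands farthest to the right at 1.89, Mmp19 farthest to the left at -1.38, and Mmp14 lies next to 0 at 0.03.

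The FPKM sums of the libraries lay between 395790 and 397260 in the CON group and between 385146 and 387516 in the 4H group. Fragment numbers cannot be read from FPKM. The steps of the low values differed by at most 1.77% between libraries, from 12 to 23 genes for each pair. Only small gaps were searched, so a large gap could not have been found and the relative depths are not settled. The correlation of log2 values over genes (genes are no replicates) was 0.992 to 0.993 within groups and 0.967 to 0.970 between them. Of 6 myoblast markers, 5 reached a mean of 0.5 FPKM, the stem cell factor Pax7 did not, and their summed level was 101 FPKM in each CON library after rounding and 129.6 to 135.1 FPKM in the 4H libraries. Myod1, the factor that defines the muscle lineage, was itself at 5.13 ± 0.573 FPKM in CON and 18.2 ± 0.738 FPKM in 4H cells, while Myf5, a related factor of the same list, was lower in 4H cells, at 15.8 ± 0.851 and 9.82 ± 1.13 FPKM. Among 5 leukocyte markers, Ptprc and Adgre1 were at 0 in every library, and Cd68, a lysosomal protein also made by other cells, was at 7.57 ± 0.892 and 16.4 ± 1.29 FPKM (SD, n = 3). Of the others, Itgam was at 0 in the CON libraries and at 0.0129 to 0.0252 FPKM in the 4H libraries, and Lyz2 was at no more than 0.222 FPKM in any library. Of 6 markers of differentiated muscle, Mymk alone reached the filter, and they summed to 0.750 to 1.21 FPKM in CON and 1.25 to 1.81 FPKM in 4H libraries, while Myog was lower in 4H libraries, with means of 0.217 and 0.0265 FPKM. The 4 endothelial markers summed to 0.101 to 0.122 FPKM in CON and 0.254 to 0.387 FPKM in 4H libraries, and the 4 epithelial markers to 0.0401 to 0.117 and 0.319 to 0.553 FPKM, with Epcam at 0 in every library. All 5 summed levels were thus higher in the 4H libraries without overlap. The part of these marker genes in the results below was not tested.

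Short stretches of promoter are shown for the inhibitors that rose most, for Adam19, and for Mmp3, Mmp10 and Mmp13, which are neighbours on chromosome 9. The sequences are those before the RefSeq start sites in GRCm38.p6, the build that the submitters' notes name as mm10, written 5′ to 3′ on the strand of the gene, and they stop before the first annotated exon. Capitals mark the AP-1 site TGANTCA, the TATA box TATAAA and the TEAD site GGAATG, each searched on both strands. AP-1 is the dimer of FOS and JUN proteins, and TEAD is the DNA-binding partner of YAP. The 3 motifs do not overlap one another in these windows. Adam19 has 3 RefSeq starts, and the stretch shown is the one of them that holds the AP-1 letters.
Timp1, chrX:20869916-20870165, plus strand: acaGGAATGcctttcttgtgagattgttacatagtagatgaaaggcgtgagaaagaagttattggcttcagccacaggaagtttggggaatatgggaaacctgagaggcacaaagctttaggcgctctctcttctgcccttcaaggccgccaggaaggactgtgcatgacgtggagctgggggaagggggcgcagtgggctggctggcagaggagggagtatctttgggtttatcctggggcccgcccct
Timp3, chr10:86300162-86300371, plus strand: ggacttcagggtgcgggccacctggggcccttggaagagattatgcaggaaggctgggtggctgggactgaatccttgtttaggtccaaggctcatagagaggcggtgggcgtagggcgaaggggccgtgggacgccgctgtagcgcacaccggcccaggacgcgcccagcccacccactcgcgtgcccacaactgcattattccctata
Adam19, chr11:46055734-46055983, plus strand: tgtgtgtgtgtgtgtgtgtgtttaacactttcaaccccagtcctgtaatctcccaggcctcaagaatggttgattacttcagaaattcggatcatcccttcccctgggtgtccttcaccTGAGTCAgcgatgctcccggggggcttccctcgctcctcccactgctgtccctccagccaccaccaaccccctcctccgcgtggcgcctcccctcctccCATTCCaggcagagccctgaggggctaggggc
Mmp3, chr9:7445572-7445821, plus strand: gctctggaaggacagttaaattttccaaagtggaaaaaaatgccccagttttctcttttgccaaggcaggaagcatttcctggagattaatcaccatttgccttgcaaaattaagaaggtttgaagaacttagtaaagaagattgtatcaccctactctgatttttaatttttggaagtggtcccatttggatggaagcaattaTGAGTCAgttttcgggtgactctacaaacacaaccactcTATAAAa
Mmp10, chr9:7502092-7502341, plus strand: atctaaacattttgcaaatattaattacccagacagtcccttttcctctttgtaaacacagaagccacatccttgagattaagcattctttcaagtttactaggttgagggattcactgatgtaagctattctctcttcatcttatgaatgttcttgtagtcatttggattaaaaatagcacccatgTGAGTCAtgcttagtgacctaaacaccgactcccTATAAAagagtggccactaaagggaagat
Mmp13, chr9:7272264-7272513, plus strand: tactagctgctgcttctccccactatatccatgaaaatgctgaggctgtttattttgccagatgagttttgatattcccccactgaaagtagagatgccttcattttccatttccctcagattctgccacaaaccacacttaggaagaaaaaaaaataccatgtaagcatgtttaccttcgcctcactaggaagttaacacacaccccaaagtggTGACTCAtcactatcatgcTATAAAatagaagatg
The AP-1 letters began 46 bases before the start in Mmp3, 63 in Mmp10, 35 in Mmp13 and 131 in Adam19. The TATA letters began 7, 29 and 16 bases before the start in Mmp3, Mmp10 and Mmp13. Timp1 held the TEAD letters 247 bases before the start, and Adam19 held them on the other strand 32 bases before it. Timp3 held none of the 3 motifs. The RefSeq table held promoters of 300 bases for 54 of the 85 genes and for 22 of the 32 tested. Of all 32851 promoters of that length, 7.81% held the AP-1 letters, 13.6% the TATA letters and 14.7% the TEAD letters, and of the 8952 tested genes with a promoter, 6.18%, 8.30% and 13.96% held them. Of the 22, 3 held AP-1 (13.6%, Mmp3, Mmp10 and Adam19), 3 held TATA (13.6%, Mmp3, Mmp10 and Adamts1) and 4 held TEAD (18.2%, Timp1, Adam19, Adam1a and Reck). A match describes letters only and does not show that a factor binds there.

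Timp1 (ENSMUSG00000001131, chromosome X, 20870166 to 20874735), the inhibitor of most secreted MMPs, was at 118.7, 124.2 and 126.7 FPKM in the CON libraries, against 263.5, 276.4 and 281.5 FPKM in the 4H libraries. Each 4H library was above every CON library. The mean went from 123.2 ± 4.07 to 273.8 ± 9.26 FPKM (SD, n = 3, as for all values with ± here), 2.22 times as much, and the log2 fold change was 1.15 (standard error 0.04, limma, adjusted p = 2.09e-07). Timp3 (ENSMUSG00000020044, chromosome 10, 86300372 to 86349506), which is held in the matrix and also blocks ADAM17 and the ADAMTS enzymes that cut aggrecan, was at 32.4, 36.7 and 35.2 FPKM in the CON libraries, against 136.6, 123.6 and 131.3 FPKM in the 4H libraries. This was the largest log2 fold change of the 32 at the pseudocount of 0.5 FPKM (at 0.1 FPKM that of Mmp3 was larger, at 2.06), from 34.8 ± 2.18 to 130.5 ± 6.56 FPKM, 3.75 times as much, and 1.89 on the log2 scale (standard error 0.05, limma, adjusted p = 1.30e-07). Timp3 lies inside the gene Syn3 on the other strand and shares 21.3% of its exon bases with it, and Syn3 was at or near 0 in every library.

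Timp2 (chromosome 11, 118301069 to 118355740), which together with MMP14 forms the complex that activates pro-MMP2, was at 125.9, 132.5 and 128.5 FPKM in the CON libraries, against 139.8, 136.5 and 133.0 FPKM in the 4H libraries. The groups were next to each other without overlap, and the log2 fold change of 0.08 did not pass (95% limits 0.0066 and 0.15, limma, adjusted p = 0.0718). With libraries rescaled to TPM it was 0.12 and passed (limma, adjusted p = 0.0205), as it did with median-of-ratios scaling (0.0419) and quantile normalization (0.0358), and over all alternatives the adjusted p lay between 0.0205 and 0.197. Reck, a membrane-anchored inhibitor, was at 1.23, 1.40 and 1.01 FPKM in the CON libraries, against 1.23, 1.41 and 1.14 FPKM in the 4H libraries, so that the groups overlapped (log2 fold change 0.04, 95% limits -0.26 and 0.34, limma, adjusted p = 0.820). Timp4 was at 0 in 4 of the 6 libraries and did not pass the filter. Among the inhibitors the order of levels in the CON group was Timp2, Timp1, Timp3 and Reck, with Timp2 and Timp1 close to each other at 129.0 ± 3.30 and 123.2 ± 4.07 FPKM. In the 4H group Timp1 led, and Timp3 had come up to the level of Timp2, with 0.957 ± 0.0447 times its FPKM against 0.269 ± 0.0106 times in the CON group.

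**Figure D2:**
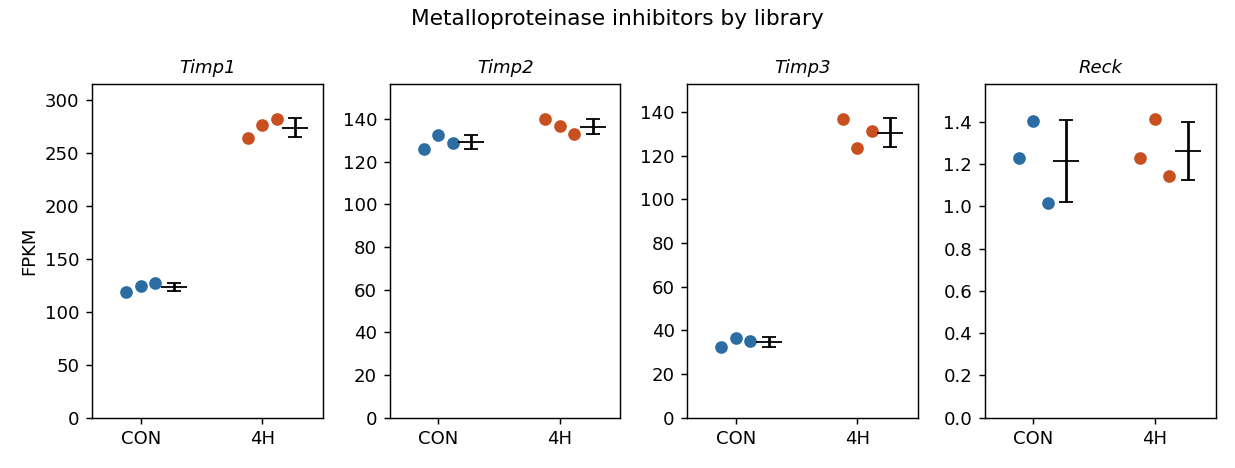
FPKM of Timp1, Timp2, Timp3 and Reck (y axes, each from 0) in the 3 CON libraries (blue) and the 3 4H libraries (orange), with the mean and SD in black. Timp1 and Timp3 separate widely, from 123.2 to 273.8 and from 34.8 to 130.5 FPKM, while the Reck points of the groups lie over each other.

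The 9 MMP genes tested held 1 that rose, Mmp3, which passed the filter only through the 4H group, 6 that fell and 2 that did not pass, beside 22.6% of all genes that rose and 24.1% that fell. The membrane-type proteinase Mmp14, the main collagenase of the cell surface, was the highest of them and differed by less than the spread between libraries, with 63.4, 67.4 and 66.5 FPKM in the CON libraries, against 66.5, 66.4 and 68.9 FPKM in the 4H libraries (log2 fold change 0.03, 95% limits -0.05 and 0.11, limma, adjusted p = 0.502). Mmp2, the gelatinase that MMP14 activates, was at 61.6, 64.5 and 59.8 FPKM in the CON libraries, against 58.8, 56.3 and 55.8 FPKM in the 4H libraries. Its fall of 0.12 on the log2 scale was small (limma, adjusted p = 0.0361), and it did not pass in 8 of 16 alternatives, among them the rescaling to TPM (adjusted p = 0.129), with adjusted p values from 0.0318 to 0.129 over all of them. These 2 genes made up 72.2 ± 0.258% of the summed Mmp FPKM in the CON group and 79.6 ± 0.700% in the 4H group. The other gelatinase, Mmp9, was below 0.16 FPKM in every library and was not tested.

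Mmp19 (ENSMUSG00000025355, chromosome 10, 128790910 to 128800824), a secreted MMP that cuts basement membrane proteins, was at 6.66, 5.58 and 5.72 FPKM in the CON libraries, against 2.07, 1.52 and 2.48 FPKM in the 4H libraries. All 4H libraries were well below the CON libraries, and the mean of the CON group was 2.96 times that of the 4H group (log2 fold change -1.38, standard error 0.15, limma, adjusted p = 0.000134). Mmp19 shares 28.3% of its exon bases with genes on the other strand. One of them, Tmem198b, moved the other way, from 8.77 to 14.4 FPKM. Mmp11, the stromelysin that is activated inside the cell by furin, fell by 0.94 on the log2 scale (standard error 0.07, limma, adjusted p = 1.38e-05). It was at 21.4, 23.8 and 23.8 FPKM in the CON libraries, against 10.9, 12.5 and 11.9 FPKM in the 4H libraries, and the CON mean was 1.95 times the 4H mean. It shares 5.58% of its exon bases with Chchd10 on the other strand, which was also lower in the 4H group, at 9.18 and 3.61 FPKM. The libraries were strand-specific by the labels, but whether strand was used in counting is not given in the sources used here.

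Smaller falls were those of Mmp16, a membrane-type MMP, from 4.69 ± 0.343 to 3.39 ± 0.203 FPKM (log2 fold change -0.42), of Mmp10, a stromelysin, from 8.05 ± 0.721 to 6.51 ± 0.250 FPKM (-0.28), and of Mmp28, also called epilysin, from 5.50 ± 0.609 to 4.47 ± 0.351 FPKM (-0.27, limma, adjusted p = 0.0490). Mmp28 did not pass in 9 of 15 alternatives, with adjusted p values from 0.0286 to 0.149, and it shares 12.0% of its exon bases with 1700020L24Rik on the other strand, which was at 2.47 and 1.20 FPKM. Mmp10 did not pass without 4H replicate 2 (adjusted p = 0.0518, limma). Mmp23 was at 1.10, 1.15 and 1.22 FPKM in the CON libraries, against 0.507, 1.36 and 0.514 FPKM in the 4H libraries. One 4H library lay above the CON group and the others below it, and the difference did not pass (limma, adjusted p = 0.180), although it did without that library, 4H replicate 2 (adjusted p = 0.00559).

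Mmp3 (ENSMUSG00000043613), the stromelysin that cuts proteoglycans and activates other pro-MMPs, rose from a low level. It was at 0.192, 0.315 and 0.161 FPKM in the CON libraries, against 0.789, 1.52 and 1.49 FPKM in the 4H libraries. The groups did not overlap, and 4H replicate 1 was the lowest of its group. The log2 fold change was 1.26 (standard error 0.20, limma, adjusted p = 0.00130), and the ratio of the means, 5.69, was larger because adding 0.5 FPKM before taking logs shrinks the fold change of genes at low levels. With a pseudocount of 1 FPKM the log2 fold change was 0.87, short of the stricter call. Mmp3 was under 0.5 FPKM in all CON libraries and entered the test only through the 4H group, so its passing is no support for the counts above. It was the tested gene closest to the filter, with a mean of 0.744 FPKM, followed by Adam1a at 0.822 FPKM. Closest below the filter were Adamts12, at 0.421 to 0.482 FPKM in the CON group and 0.474 to 0.532 in the 4H group, and Mmp13. Mmp13, a collagenase, was at 0.285, 0.167 and 0.198 FPKM in the CON libraries, against 0.322, 0.177 and 1.21 FPKM in the 4H libraries, so that 4H replicate 3 alone stood out. Mmp24, a membrane-type MMP, was listed at 0, 0.217 and 0.0598 FPKM in the CON libraries, against 0.540, 0.759 and 0.637 FPKM in the 4H libraries. The groups did not overlap, its mean was under the filter, and with libraries rescaled to TPM it passed the filter through the 4H group, so that its meeting the stricter call there is no support for a difference.

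Mmp3, Mmp10 and Mmp13 belong to a run of 10 Mmp genes on chromosome 9 (7272514 to 7699585, GENCODE M21, GRCm38). Of these 10, 2 passed the filter, Mmp3 and Mmp10, which moved in opposite directions, and 5 were at 0 in all 6 libraries (Mmp1b, Mmp7, Mmp8, Mmp20 and Mmp27). The RefSeq promoters of 8 of the 10 held the AP-1 letters shown above. Of the 7 genes of AP-1 subunits, 5 rose (against 22.6% of all genes), and 3 passed with a filter at 5 FPKM. Fos was at 0.194, 0.127 and 0.233 FPKM in the CON libraries, against 1.18, 1.09 and 1.39 FPKM in the 4H libraries (log2 fold change 1.33, limma, adjusted p = 0.000149), and Fosb rose from 0.295 ± 0.108 to 1.90 ± 0.0982 FPKM (1.60, limma, adjusted p = 4.85e-05). Fos and Fosb were under 0.5 FPKM in all CON libraries and were tested only through the 4H group, so their passing is no support for that count, and the log2 fold change of Fos was 2.22 with a pseudocount of 0.1 FPKM and 0.90 with 1 FPKM. Fosl1, Jun and Junb rose as well, by 0.57, 0.98 and 0.34, while Fosl2 and Jund did not pass. The part of AP-1 in the levels of the Mmp genes was not tested.

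Of the 8 ADAMs tested, 3 rose, 2 fell and 3 did not pass (22.6% of all genes rose and 24.1% fell), and the 4 most abundant (Adam9, Adam10, Adam15 and Adam17) were among those that fell or did not pass. Adam8 (ENSMUSG00000025473, chromosome 7, 139978932 to 139992562), a proteinase best known from leukocytes, was at 4.53, 4.22 and 4.28 FPKM in the CON libraries, against 10.3, 9.93 and 10.9 FPKM in the 4H libraries. The groups were far apart, with 2.39 times as much in the 4H group (log2 fold change 1.17, standard error 0.06, limma, adjusted p = 3.63e-06). Of the 5 leukocyte markers, Ptprc and Adgre1 were at 0 in the same libraries, Itgam and Lyz2 were near 0 with higher means in the 4H group, and Cd68 was 2.16 times as high there, and their part in the rise of Adam8 was not tested. Adam19 (ENSMUSG00000011256, chromosome 11, 46055992 to 46147343), also called meltrin beta, which sheds neuregulin, was at 6.67, 7.84 and 7.54 FPKM in the CON libraries, against 14.9, 15.0 and 16.0 FPKM in the 4H libraries. Its log2 fold change of 1.01 (standard error 0.07, limma, adjusted p = 1.22e-05) lay at the threshold, and it was 0.95 without CON replicate 1, 0.98 without 4H replicate 3 and 0.97 with a pseudocount of 1 FPKM. Adam12, or meltrin alpha, which takes part in myoblast fusion, rose from 4.69 ± 0.196 to 7.10 ± 0.292 FPKM (log2 fold change 0.55, limma, adjusted p = 0.000307).

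Adam9 was the most abundant ADAM and fell by 0.26 on the log2 scale, from 73.7 ± 1.56 to 61.7 ± 1.16 FPKM (limma, adjusted p = 0.000335). Adam17, the sheddase of TNF and of several EGF receptor ligands, was at 26.1, 26.6 and 26.1 FPKM in the CON libraries, against 22.5, 22.5 and 22.8 FPKM in the 4H libraries, a fall of 0.21 (limma, adjusted p = 0.00175). It shares 4.35% of its exon bases with Iah1 on the other strand, which was at 14.1 and 8.96 FPKM. The other general sheddase, Adam10, which cuts Notch receptors and cadherins, was at 32.3 ± 1.63 and 30.3 ± 2.47 FPKM, and its groups overlapped (log2 fold change -0.10, 95% limits -0.25 and 0.05, limma, adjusted p = 0.256). Adam15, which carries an integrin-binding sequence, was at 26.3 ± 0.433 and 27.8 ± 0.575 FPKM and did not pass (limma, adjusted p = 0.140), although its groups did not overlap and it passed with TPM (adjusted p = 0.0433). Adam1a, at 0.629 to 0.988 FPKM, did not pass either, and its value is uncertain because 87.7% of its exon bases are shared with Mapkapk5 and a predicted gene on the same strand. Of the 33 Adam genes, 25 did not reach the filter, and 13 of these were at 0 in all libraries. Adam2, Adam7 and Adam24, known from the male reproductive tract, are among those at 0.

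**Figure D3:**
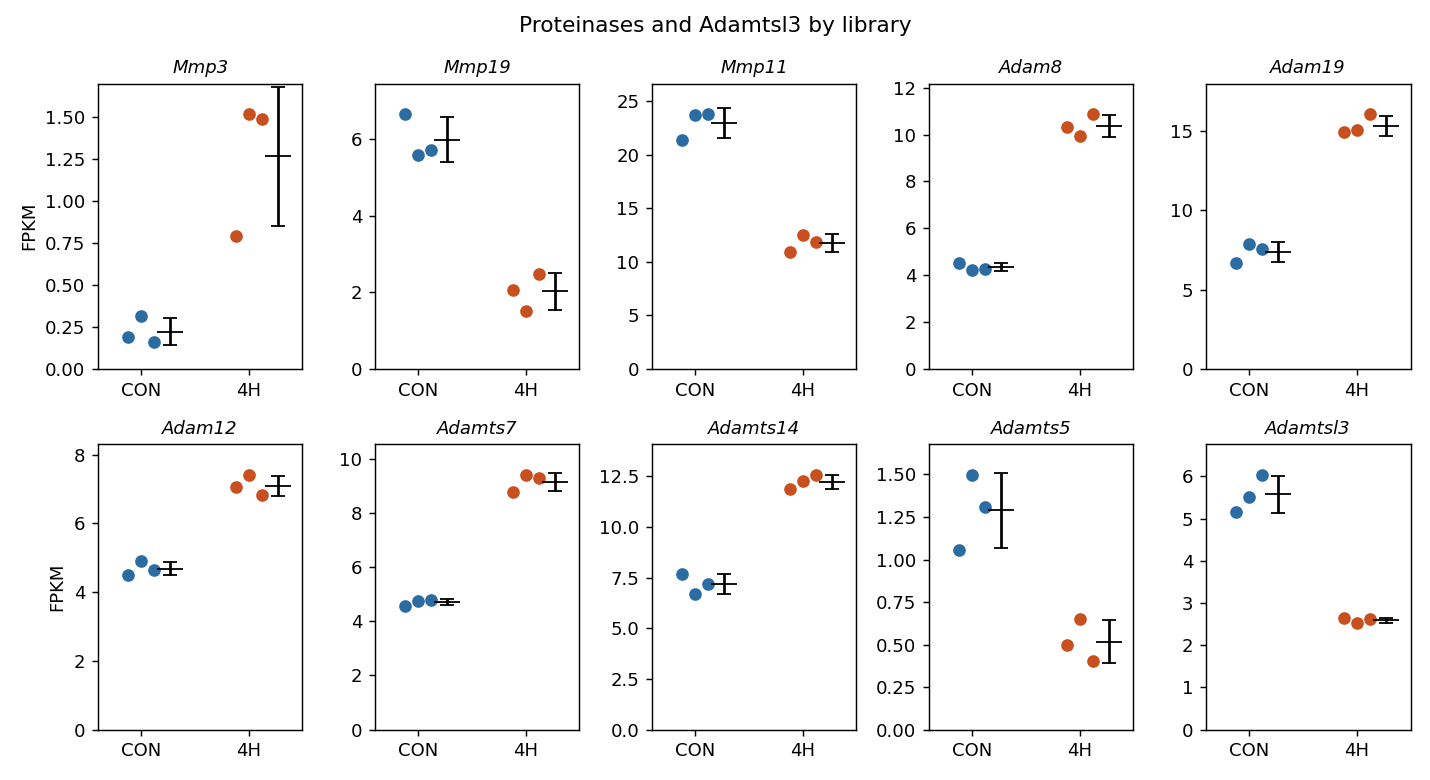
FPKM of 10 genes (y axes, each from 0) in the 3 CON libraries (blue) and the 3 4H libraries (orange), with the mean and SD in black. Mmp3, Adam8, Adam19, Adam12, Adamts7 and Adamts14 are higher in all 4H libraries, and Mmp19, Mmp11, Adamts5 and Adamtsl3 are lower in all of them; 4H replicate 1 lies apart from the other 4H libraries in Mmp3.

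Among the ADAMTS genes, 4 of the 8 tested rose and 1 fell, against 22.6% and 24.1% of all genes. Adamts7 (chromosome 9, 90163069 to 90208071), which cuts cartilage oligomeric matrix protein, was at 4.58, 4.73 and 4.80 FPKM in the CON libraries, against 8.76, 9.40 and 9.27 FPKM in the 4H libraries. It rose 1.94 times without overlap of the groups (log2 fold change 0.89, standard error 0.06, limma, adjusted p = 1.24e-05). Adamts14 (chromosome 10, 61197112 to 61273438), one of the enzymes that remove the amino-terminal propeptide of procollagen, went up from 7.18 ± 0.494 to 12.2 ± 0.341 FPKM, a log2 fold change of 0.73 (limma, adjusted p = 4.75e-05). Of the other enzymes of that kind, Adamts2 was at 1.18 ± 0.267 and 1.20 ± 0.312 FPKM with overlapping groups, and Adamts3 was below 0.23 FPKM in every library. Adamts6 rose from 6.70 ± 0.464 to 8.60 ± 0.509 FPKM (log2 fold change 0.34, limma, adjusted p = 0.00620), while Adamts10, its closest relative, was at 2.93 ± 0.176 and 3.28 ± 0.386 FPKM and did not pass (limma, adjusted p = 0.309).

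The ADAMTS enzymes that cut aggrecan and versican did not move together. Adamts4 rose from 1.01 ± 0.120 to 1.81 ± 0.115 FPKM (log2 fold change 0.61, limma, adjusted p = 0.00281). Adamts5 was at 1.06, 1.497 and 1.31 FPKM in the CON libraries, against 0.499, 0.652 and 0.403 FPKM in the 4H libraries. It fell without overlap of the groups, the CON mean being 2.49 times the 4H mean (log2 fold change -0.81, standard error 0.15, limma, adjusted p = 0.00301). Adamts1, the most abundant of these enzymes, was at 9.13 ± 0.523 and 9.52 ± 0.343 FPKM (log2 fold change 0.06, 95% limits -0.09 and 0.20, limma, adjusted p = 0.487). Adamts1 and Adamts5 are neighbours on chromosome 16, at 85793827 to 85803113 and 85856173 to 85901828. Adamts8, Adamts9, Adamts15 and Adamts20 did not reach the filter.

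Adamtsl proteins resemble ADAMTS enzymes but have no proteinase domain. Adamtsl3 (chromosome 7, 82335694 to 82614450) was at 5.16, 5.51 and 6.03 FPKM in the CON libraries, against 2.64, 2.52 and 2.61 FPKM in the 4H libraries. It fell by 0.97 on the log2 scale (standard error 0.08, limma, adjusted p = 3.77e-05), just short of the stricter call, which it met in 4 of 15 alternatives, namely without CON replicate 1 (-1.02), with a pseudocount of 0.1 FPKM (-1.07), with TPM (-1.01) and with quantile normalization (-1.02). Adamtsl5, the most abundant, fell by 0.19, from 36.9 ± 1.10 to 32.2 ± 0.915 FPKM (limma, adjusted p = 0.00487). Adamtsl4, a protein of fibrillin microfibrils, was at 11.9 ± 0.279 and 12.4 ± 0.315 FPKM and did not pass (limma, adjusted p = 0.337).

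Summed over each family, the 4 Timp genes held 277.1, 293.4 and 290.4 FPKM in the CON libraries, against 539.9, 536.5 and 545.7 FPKM in the 4H libraries. The 23 Mmp genes held 173.5, 181.9 and 175.2 FPKM in the CON libraries, against 155.8, 154.6 and 157.7 FPKM in the 4H libraries. The Timp sum was therefore 1.60, 1.61 and 1.66 times the Mmp sum in the CON libraries and 3.46, 3.47 and 3.46 times in the 4H libraries. This ratio is taken within each library, so scaling a whole library does not alter it, and as a description of transcripts it has no test and says nothing of protein or activity. Without Mmp2 and Mmp14 the Mmp sum was 49.1 ± 0.779 FPKM in CON and 31.8 ± 1.25 FPKM in 4H cells. The Adam sum was 177.0 ± 4.23 and 177.5 ± 1.43 FPKM, and the Adamts sum was 34.96 ± 0.621 and 47.0 ± 1.24 FPKM.

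**Figure D4:**
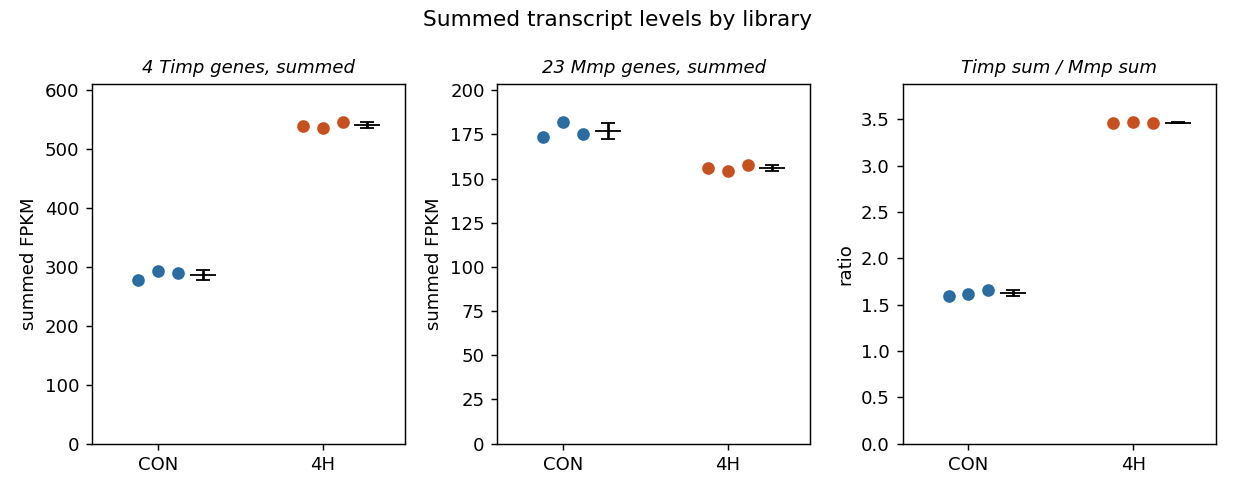
Summed FPKM of the 4 Timp genes and of the 23 Mmp genes, and the ratio of these sums (y axes, each from 0), in the 3 CON libraries (blue) and the 3 4H libraries (orange), with the mean and SD in black. The Timp sum rises from 287.0 to 540.7 FPKM, the Mmp sum drops from 176.9 to 156.1 FPKM, and the ratio goes from 1.62 to 3.47.

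Genes that act with these families were read from 6 lists of 69 genes, of which 51 were tested. Of these, 32 rose and 5 fell, which is 72.5% together, against 46.7% of all genes. The lists were chosen with earlier results of these data known, so their shares are descriptions and no support. Fos and Fosb, counted among the 32, were tested only through the 4H group. Among activators and uptake receptors, 9 of 12 rose and 2 fell, against 22.6% and 24.1% of all genes. Furin, the convertase that removes the propeptide of membrane-type MMPs, Mmp11 and ADAMs, rose from 28.0 ± 0.608 to 42.1 ± 0.616 FPKM (log2 fold change 0.58, limma, adjusted p = 6.17e-06). Plau, the urokinase that makes plasmin, which in turn activates pro-MMPs, rose from 9.06 ± 0.558 to 40.5 ± 2.83 FPKM (log2 fold change 2.10, limma, adjusted p = 1.99e-07), while Plg, the gene of plasminogen itself, was at 0 in every library. Tll1, a tolloid that cuts the carboxy-terminal propeptide of procollagen, rose from 0.955 ± 0.178 to 4.63 ± 0.581 FPKM (log2 fold change 1.82, limma, adjusted p = 1.52e-05). Cd44, which holds MMPs at the cell surface, rose by 1.20, and Lrp1, the receptor that takes up TIMP3 and many proteinases, fell by 0.14 (limma, adjusted p = 0.00454). In the list of other inhibitors, 2 of 4 rose and 1 fell (75% together, against 46.7% of all genes, with 22.6% that rose and 24.1% that fell). This list is too short to read a difference from. Among them Serpine2, a serpin of thrombin, had a log2 fold change of 1.13, and the testican Spock2 had -0.59.

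Of the 7 tested partners that carry ADAM10 and ADAM17 to the cell surface, 3 rose (42.9%, against 22.6% of all genes). None fell in limma (against 24.1%), where Rhbdf2 was lower at an unadjusted p of 0.0374 (adjusted p = 0.0734). In either direction the share of all genes was 46.7%. Of the tetraspanins that guide ADAM10, Tspan15 rose from 8.36 ± 0.349 to 12.2 ± 0.250 FPKM (log2 fold change 0.51, limma, adjusted p = 0.000138) and Tspan17 from 12.0 ± 1.20 to 14.5 ± 0.994 FPKM (0.27, limma, adjusted p = 0.0260). Tspan17 did not pass in 4 of 16 alternatives, with adjusted p values from 0.0117 to 0.0834. The tetraspanin gene Tspan14 rose by 0.26 on the log2 scale (limma, adjusted p = 0.00978), and Tspan5 did not pass (0.08, limma, adjusted p = 0.465). The rhomboid-like proteins that carry ADAM17, Rhbdf1 and Rhbdf2, did not pass, with log2 fold changes of 0.12 and -0.22. Of another list, 12 of the 15 tested genes for membrane proteins that these enzymes shed rose (against 22.6% of all genes) and none fell in limma (against 24.1%), the one negative difference being that of Egf (log2 fold change -0.22, unadjusted p = 0.376). Hbegf, an EGF receptor ligand released by ADAM17 and ADAM12, was at 10.1, 8.87 and 9.62 FPKM in the CON libraries, against 34.3, 31.5 and 33.6 FPKM in the 4H libraries (log2 fold change 1.75, limma, adjusted p = 3.08e-07). Btc, a ligand released by ADAM10, rose from 3.32 ± 0.315 to 10.3 ± 0.892 FPKM, 3.09 times as much (limma, adjusted p = 5.76e-06), and the ligand genes Ereg and Areg rose 2.19 and 1.94 times. Among the substrates of ADAMTS enzymes, 1 of 6 rose and 2 fell, together 3 of 6, a share near the 46.7% of all genes. Thbs1, the gene of thrombospondin 1, rose from 44.1 ± 3.27 to 181.9 ± 2.00 FPKM, and Col1a2 and Col3a1 fell by 0.41 and 0.37. Versican (Vcan), the substrate of Adamts1, Adamts4 and Adamts5, was at 41.8 ± 2.52 and 42.9 ± 0.673 FPKM with overlapping groups.

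**Figure D5:**
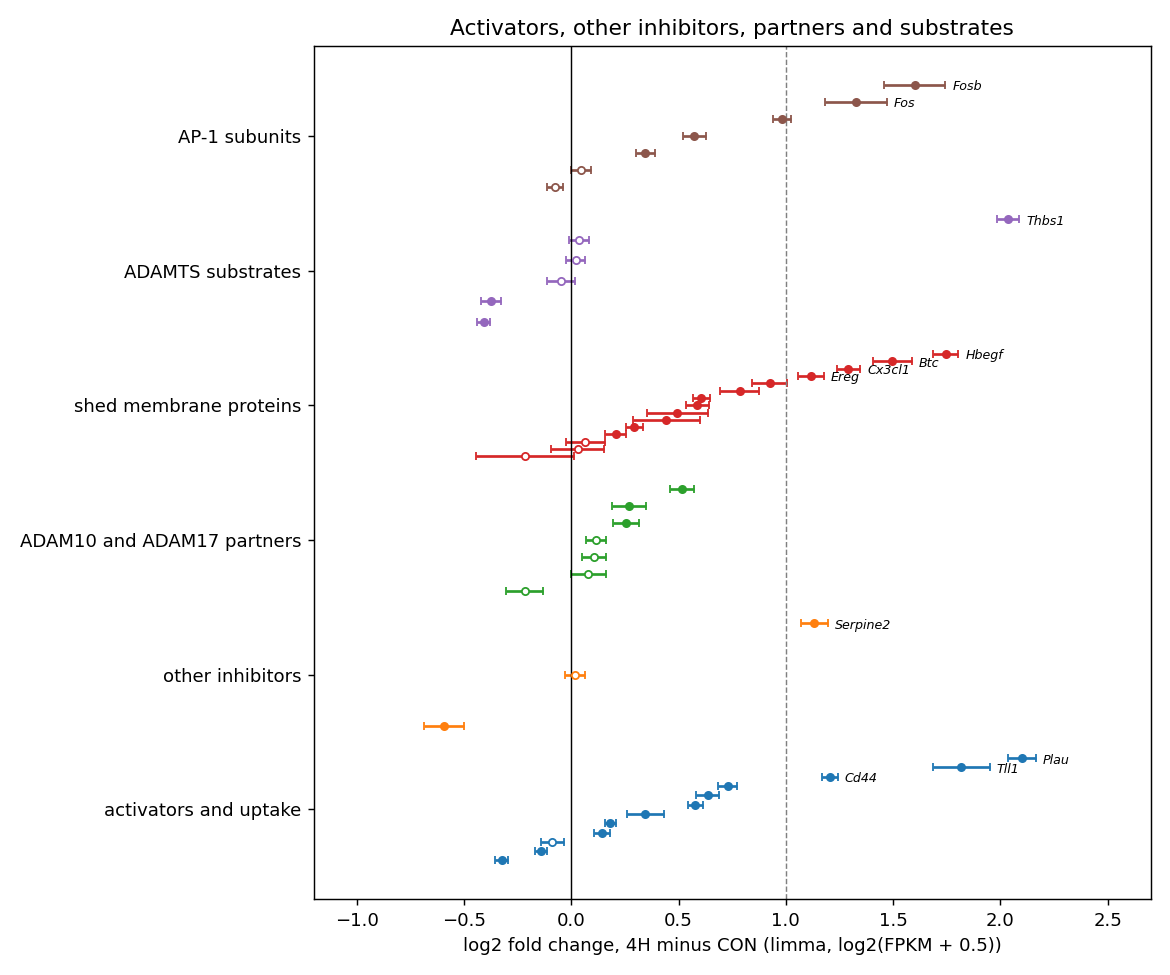
Log2 fold change of 50 of the 51 tested genes of the 6 lists (x axis, 4H minus CON on log2(FPKM + 0.5), error bars are limma standard errors), with filled points at an adjusted p of 0.05 or less and names for genes that also reach a log2 fold change of 1. Plau, Thbs1 and Tll1 lie farthest to the right at 2.10, 2.04 and 1.82, and no named gene lies on the left.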

How the data were processed

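RNA-seq of C2C12 cells covered 3 CON and 3 4H libraries, grouped by the treatment in the labels. The values deposited by the authors were FPKM in a single table with a column for each library, all of them mapped to a sample. The submitters' processing notes name mm10, and which aligner, counter and annotation were used is not given in the sources used here. Genes were chosen by symbol. The families, the lists of related genes, the motifs and the genes to be described were chosen with earlier results of these data known.

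Depth is not held by FPKM, so no count model was used and precision rests on the spread of 3 libraries. limma 3.58.1 in R 4.3.3 (lmFit, eBayes with a trend) was fitted to log2(FPKM + 0.5) for the 11593 genes whose mean was 0.5 FPKM or more, two-sided, with Benjamini-Hochberg adjustment. The labels do not say that libraries came from separate cultures, so p values measure the spread between these libraries. The step was tested on simulated data. Positions and shared exon bases came from GENCODE M21, which held all 85 genes, and promoters from RefSeq (GRCm38.p6). Python 3.11.15 and matplotlib 3.10.9 made the motif counts and plots.

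Genes given in full were those that met the stricter call, the Timp genes and Reck, the 3 largest changes past the adjusted p and the 2 highest levels of each family, 9 genes of textbook role, the 2 largest changes past the adjusted p of each list and the 2 nearest the filter on each side. All other named genes were picked with their values in view. Some genes are not reported here. The alternatives tried were a pseudocount of 0.1 or 1 FPKM, filters at 0, 1 and 5 FPKM, TPM, median-of-ratios and quantile scaling, limma without a trend, a replicate block, and each library left out.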

Additional observations from a re-analysis of the deposited data

How the results depend on the processing

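There were 16 alternatives, and a gene was recomputed in those in which it passed the filter (14 or 15 for the genes with a mean under 5 FPKM, such as Mmp3 and Mmp19). The number of genes that met the stricter call was 6 and lay between 4 and 9. It was split into 5 higher and 1 lower, with 3 higher at a pseudocount of 1 FPKM, and 3 lower at a pseudocount of 0.1 FPKM, 3 lower with TPM, 2 lower with quantile normalization and 0 lower with a filter at 5 FPKM, where Mmp19 is no longer tested. With 1 library left out, 1 to 2 were lower. Timp1, Timp3 and Adam8 met it in all 16. Of the genes at an adjusted p of 0.05 or less, 11 were lower, and 6 with a filter at 5 FPKM, where 20 genes are left. The median log2 fold change of 0.05 became 0.10 with TPM and 0.00381 with quantile normalization, and with a library left out it lay between 0.03 (without 4H replicate 2, and likewise without CON replicate 1) and 0.07. Reck changed sign with quantile normalization (-0.0703), without CON replicate 3 (-0.0455) and without 4H replicate 2 (-0.0194), lay between -0.0455 and 0.119 with a library left out, and passed in no alternative. The median of all genes was -0.01 and became 0.03 with TPM and -0.03 with quantile normalization. Of the 21 genes at an adjusted p of 0.05 or less, 3 did not pass in 1 or more alternatives (Mmp2, Mmp10 and Mmp28), and of the 37 related genes 3 did not (Tspan17, Dll1 and Tgfa). With the replicate number as a block, 6 genes met the stricter call and 19 had an adjusted p of 0.05 or less, without Mmp2 (adjusted p = 0.0545) and Mmp28 (0.0682), and among the related genes Tspan17 (0.0561) and Dll1 (0.0705) no longer passed. Same-numbered libraries did not deviate together (correlations of 0.0250, -0.0929 and -0.126), so these numbers, taken from the sample descriptions, were not read as pairs. The titles number the 4H libraries differently, and the pairs that share a title number, 1 and 3, had correlations of 0.0250 and 0.176. Absolute depth is unknown.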
